A study of Homo sapiens with 6 samples.

Results

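MicroRNA host genes were examined in H9 cells, a cutaneous T-cell lymphoma (CTCL) cell line, treated with vehicle (DMSO) or with AZD4573, a selective CDK9 inhibitor. A microRNA host gene is the longer transcription unit from which a microRNA is cut. Members were chosen by name and level, as the genes whose symbol reads MIR, then a microRNA name, then HG, and which had at least 60 counts summed over the 6 libraries. The rule was met by 26 of 77 genes with such a name, among 61541 genes in the count table. Of the 51 others, 21 had no count in any library and 30 had some. The members closest to the limit were MIR302CHG with 87 counts and MIR29B2CHG with 102, and the nearest genes outside it were MIRLET7BHG with 23 counts and MIR646HG with 20. The summed counts that chose the members are a description and were not tested.

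The study's bulk RNA-seq comprised 3 libraries of cells given DMSO and 3 of cells given AZD4573, which the labels mark as 4 h. The labels give the genotype of all 6 libraries as wild type, and all come from a single cell line. Nothing in the labels ties the replicates to separate cultures, so the p-values below measure the spread between these libraries, which may be technical. Total counts per library ran from 70367303 to 76571157 with DMSO and from 52101868 to 63795185 with AZD4573.

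CDK9 is the kinase of the elongation factor P-TEFb, which phosphorylates RNA polymerase II (RNAP2) and lets paused polymerase enter the gene body. Most microRNAs are transcribed by RNAP2 inside a long primary transcript, in an exon or an intron of the host. The nuclear enzyme DROSHA with its partner DGCR8 cuts out a hairpin, XPO5 exports it, DICER1 trims it, and an Argonaute protein holds the mature strand. The seed, bases 2 to 8 of the mature strand, pairs with target mRNAs, so microRNAs with the same seed share most of their predicted targets. In lymphocytes, miR-155, the miR-17 cluster, miR-146a and miR-181a are well-known regulators of activation, growth and receptor signalling. The libraries report the host transcripts. The mature microRNAs were not measured in them.

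The mature microRNAs carried by hosts that were lower with AZD4573 are shown first, since their seeds identify what these transcripts encode. Sequences and positions are from the RefSeq microRNA table (build GRCh38.p14), written 5′ to 3′ with the seed in capitals. The host MIR222HG carries miR-221 and miR-222, which have the same seed. MIR17HG carries a cluster of 6 hairpins in 1 exon region. MIR503HG, MIR9-1HG and MIR4453HG carry the others.
hsa-miR-221-3p: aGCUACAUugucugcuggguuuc (chrX:45746180-45746202, minus strand, exon edge of MIR222HG)
hsa-miR-222-3p: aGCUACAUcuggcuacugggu (chrX:45747036-45747056, minus strand, intron of MIR222HG)
hsa-miR-17-5p: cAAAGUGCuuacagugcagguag (chr13:91350618-91350640, plus strand, exon of MIR17HG)
hsa-miR-20a-5p: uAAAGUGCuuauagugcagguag (chr13:91351072-91351094, plus strand, exon of MIR17HG)
hsa-miR-18a-5p: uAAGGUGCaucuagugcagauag (chr13:91350756-91350778, plus strand, exon of MIR17HG)
hsa-miR-19a-3p: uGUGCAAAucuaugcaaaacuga (chr13:91350939-91350961, plus strand, exon of MIR17HG)
hsa-miR-19b-3p: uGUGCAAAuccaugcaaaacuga (chr13:91351245-91351267, plus strand, exon of MIR17HG)
hsa-miR-92a-3p: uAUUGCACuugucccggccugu (chr13:91351361-91351382, plus strand, exon of MIR17HG)
hsa-miR-503-5p: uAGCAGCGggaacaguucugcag (chrX:134546371-134546393, minus strand, exon edge of MIR503HG)
hsa-miR-9-5p: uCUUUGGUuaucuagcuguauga (chr1:156420392-156420414, minus strand, exon edge of MIR9-1HG)
hsa-miR-4453: gAGCUUGGucuguagcgguu (chr4:152536432-152536451, plus strand, exon of MIR4453HG)

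The mature microRNAs of hosts that were higher with AZD4573 follow, in the same notation. MIR193BHG carries a pair of hairpins in its introns, MIR23AHG carries 3 hairpins in a row within an exon, and MIR29B2CHG carries a pair whose mature strands share a seed.
hsa-miR-193b-3p: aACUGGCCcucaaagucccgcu (chr16:14304017-14304038, plus strand, intron of MIR193BHG)
hsa-miR-365a-3p: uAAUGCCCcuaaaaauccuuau (chr16:14309340-14309361, plus strand, intron of MIR193BHG)
hsa-miR-210-3p: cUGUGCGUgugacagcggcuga (chr11:568112-568133, minus strand, intron of MIR210HG)
hsa-let-7i-5p: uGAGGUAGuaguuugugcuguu (chr12:62603691-62603712, plus strand, intron of MIRLET7IHG)
hsa-miR-23a-3p: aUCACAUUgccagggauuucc (chr19:13836595-13836615, minus strand, exon of MIR23AHG)
hsa-miR-27a-3p: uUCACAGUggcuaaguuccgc (chr19:13836447-13836467, minus strand, exon of MIR23AHG)
hsa-miR-24-3p: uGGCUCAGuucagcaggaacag (chr19:13836289-13836310, minus strand, exon of MIR23AHG)
hsa-miR-762: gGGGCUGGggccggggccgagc (chr16:30893951-30893972, plus strand, intron of MIR762HG)
hsa-miR-29b-3p: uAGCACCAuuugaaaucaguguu (chr1:207802450-207802472, minus strand, exon of MIR29B2CHG)
hsa-miR-29c-3p: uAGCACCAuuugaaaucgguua (chr1:207801865-207801886, minus strand, exon of MIR29B2CHG)
hsa-miR-600: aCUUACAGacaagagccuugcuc (chr9:123111561-123111583, minus strand, exon of MIR600HG)

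The host transcripts were scarce. The 26 members held 4484 to 5210 counts per library with DMSO and 4344 to 5171 with AZD4573, which was 0.00586% to 0.00740% and 0.00811% to 0.00846% of the totals. Values are given as CPM, a gene's counts relative to its library's total after scaling by edgeR's TMM factors. A count of 0 in the deepest library allows up to 0.0392 CPM, taken as 3 counts of its unscaled total, and this limit covers counting error only. DMSO replicate 1 was the lowest DMSO library for 16 of the 26 members, and without it 7 members were lower and 8 higher, the counts of the full set. Defining markers of T cells summed to 1115 to 1175 CPM with DMSO and to 1616 to 1630 CPM with AZD4573 over 10 genes, with CD3D and CD3E among the high ones and CD2 at no more than 0.166 CPM. The summed myeloid markers were at 0.127 to 0.191 CPM with DMSO and at 1.03 to 1.94 CPM with AZD4573 over 5 genes, most of the latter from MPO. B-cell markers summed to 61.0 to 67.01 CPM and 92.5 to 103 CPM, mostly CD79A with PAX5 at or near 0, and stromal and epithelial markers to 156 to 173 CPM and 136 to 141 CPM, mostly EPCAM. The part of these levels in the values below was not tested.

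Upon AZD4573 treatment, 7 of the 26 hosts were lower and 8 were higher, and 11 did not pass the test. Genes were called where edgeR's quasi-likelihood test, adjusted over all 17678 genes tested, gave a p below 0.05 and the fold change was at least 1.5. The lower hosts were 26.9% of the members, against 23.7% of all genes tested, and the higher hosts were 30.8%, against 22.7%. In either direction the share was 57.7% of the members and 46.4% of all genes. The median log2 fold change was 0.23 over the members and 0.03 over all genes. The groups did not overlap for 18 members, or 69.2%, against 77.8% of all genes, with AZD4573 below for 7 and above for 11 (38.7% and 39.0% of all genes). The shares of the members were thus near those of all genes, and the description below is by transcript. All 26 members passed the filter on low counts, but MIR222HG passed it through its DMSO libraries alone and so had to differ. Of the other 25, 6 were lower (24%) and 8 higher (32%), with a median log2 fold change of 0.28.

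**Figure D1:**
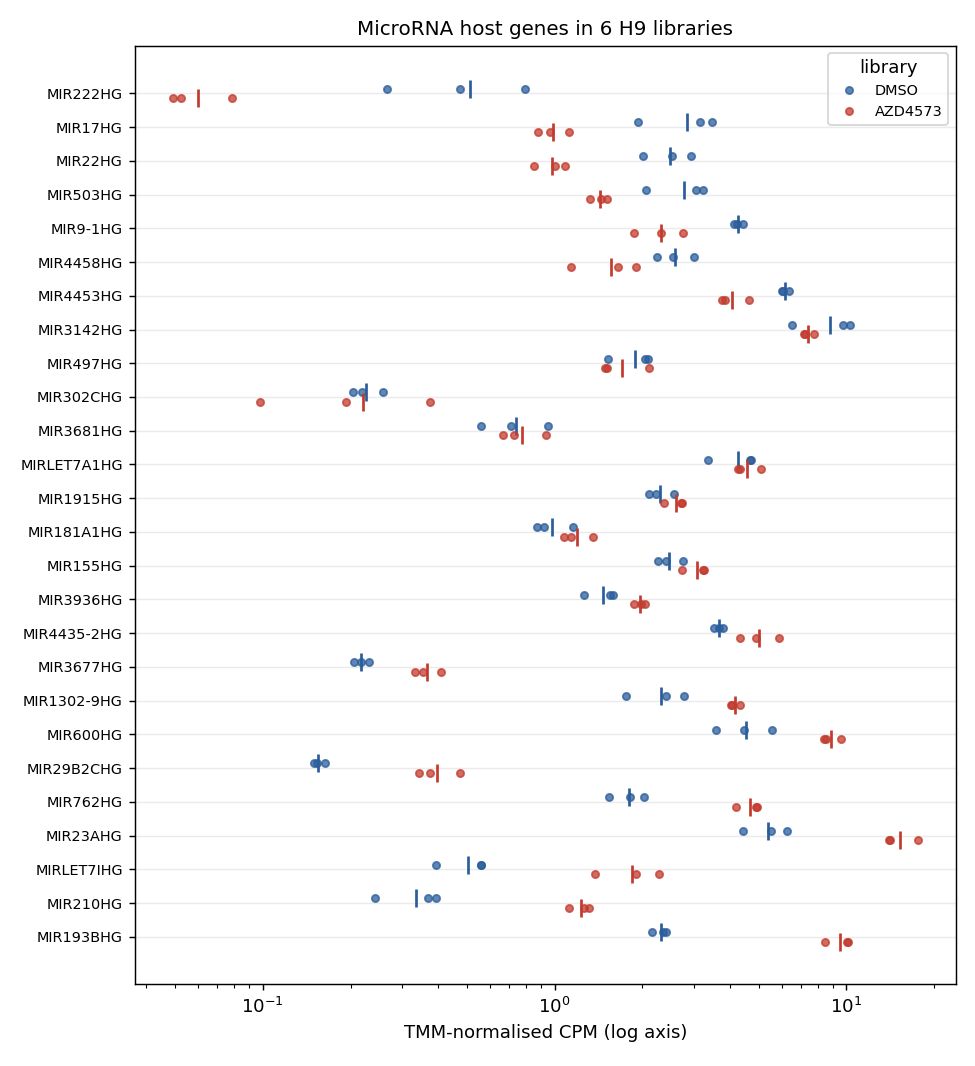
Expression of the 26 microRNA host genes in each library, in TMM-normalised CPM on a log axis, with DMSO libraries in blue, AZD4573 libraries in red and a bar at each group mean (n = 3 libraries per group). Genes are ordered by log2 fold change, and the colours lie apart at the top (MIR222HG to MIR4453HG) and from MIR3936HG to the bottom, and overlap between.

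Among hosts of blood-cell and growth microRNAs, 3 of 8 members fell (37.5%) and 2 rose (25%), against 23.7% and 22.7% of all genes. The falls include MIR222HG, which passed the filter through its DMSO libraries alone and so had to differ. MIR17HG (chr13:91347686-91397592, plus strand) is the transcript of the MYC-driven miR-17 cluster, whose microRNAs promote lymphocyte growth and survival. It stood at 1.92, 3.45 and 3.15 CPM in DMSO replicates 1 to 3 and at 1.12, 0.877 and 0.967 CPM with AZD4573. Each AZD4573 library was below each DMSO library. The mean fell from 2.84 ± 0.810 to 0.988 ± 0.123 CPM (SD, n = 3), a 2.88-fold difference with a log2 fold change of -1.52 (SE 0.226, adjusted p = 3.52e-05). MIR22HG (chr17:1711447-1717174, minus strand), the host of the tumour-suppressive miR-22, had 2.01, 2.94 and 2.53 CPM with DMSO and 1.00, 1.09 and 0.852 CPM with AZD4573. The groups lay apart here too, with a log2 fold change of -1.34 (SE 0.194, adjusted p = 2.70e-05).

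MIR222HG (chrX:45745210-45770274, minus strand) gives rise to miR-221 and miR-222, which restrain the cell-cycle inhibitor p27. Its counts were 21, 58 and 35 with DMSO and 4, 3 and 3 with AZD4573. At 0.0210 CPM per kilobase of exon it was the scarcest member in the treated cells, and all 3 treated libraries lay below the filter's level of 0.149 CPM. From the summed counts of 114 and 10, the level was 8.55 times higher with DMSO (95% exact binomial interval 4.48 to 18.3, which covers counting error only). The fitted log2 fold change of -3.06 (SE 0.545) rests on these few counts. It is given as a description, since the gene entered the fit through the group where it is high.

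MIR23AHG (chr19:13823880-13842928, minus strand) moved the other way. Its hairpins give miR-23a, miR-27a and miR-24, which act in haematopoietic and T-cell differentiation. Its level was 4.41, 5.52 and 6.26 CPM with DMSO and 14.1, 17.6 and 13.9 CPM with AZD4573. The lowest treated library was above the highest DMSO library, and the mean rose from 5.39 ± 0.930 to 15.2 ± 2.08 CPM (SD, n = 3), which is 2.82-fold. The log2 fold change was 1.497 (SE 0.127, adjusted p = 1.43e-07). MIR29B2CHG (chr1:207760650-207879115, minus strand), the host of miR-29b and miR-29c, which target DNA methyltransferases and collagens, had 12, 11 and 12 counts with DMSO and 19, 27 and 21 with AZD4573. Despite its low level the groups did not overlap, and the log2 fold change was 1.34 (SE 0.377, adjusted p = 0.00552).

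The 3 remaining hosts of this group did not pass the test. MIR155HG (chr21:25561810-25575168, plus strand), also known as BIC, encodes miR-155, an activation-induced microRNA that is abundant in many lymphomas. It had 2.26, 2.74 and 2.40 CPM with DMSO and 2.73, 3.23 and 3.24 CPM with AZD4573, so that the groups met at their edges (log2 fold change 0.32, SE 0.140, adjusted p = 0.0559). MIR3142HG (chr5:160438594-160487426, plus strand) carries miR-146a, which damps NF-κB signalling. It had 6.49, 9.71 and 10.2 CPM with DMSO and 7.13, 7.74 and 7.21 CPM with AZD4573. DMSO replicate 1 was below all treated libraries and the other DMSO libraries were above them. The log2 fold change was -0.26 (SE 0.142, adjusted p = 0.116), and -0.45 without DMSO replicate 1 (adjusted p = 0.000708), still short of the fold limit. Without any other single library it was between -0.15 and -0.30, with an adjusted p between 0.141 and 0.38. MIR181A1HG (chr1:198777861-198937471, minus strand), the host of miR-181a, which tunes T-cell receptor sensitivity, lay between 0.869 and 1.16 CPM with DMSO and between 1.08 and 1.36 CPM with AZD4573 (log2 fold change 0.28, SE 0.214, adjusted p = 0.256).

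Hosts of growth-restraining and stress microRNAs comprised 4 members, of which 1 fell (25%) and 2 rose (50%), against 23.7% and 22.7% of all genes. MIR193BHG (chr16:14301389-14331067, plus strand), whose miR-193b represses cyclin D1, showed the smallest adjusted p of any member. It stood at 2.35, 2.42 and 2.16 CPM with DMSO and at 8.47, 10.1 and 10.0 CPM with AZD4573. Libraries of the same group were close together, and the mean rose from 2.31 ± 0.133 to 9.53 ± 0.923 CPM (SD, n = 3), which is 4.13-fold. The log2 fold change was 2.05 (SE 0.112, adjusted p = 1.95e-09). None of its exon bases lies within another annotated gene.

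MIR210HG (chr11:565657-568457, minus strand) hosts miR-210, a classical target of the hypoxia-inducible factor. Counts of 19, 27 and 29 with DMSO stood against 57, 72 and 80 with AZD4573. The groups were well separated, the mean rose from 0.335 ± 0.0812 to 1.23 ± 0.0992 CPM (SD, n = 3), and the log2 fold change was 1.88 (SE 0.269, adjusted p = 2.54e-05). MIR503HG (chrX:134543119-134546642, minus strand), the host of miR-503, which lowers G1 cyclins, was at 2.06, 3.22 and 3.05 CPM with DMSO and at 1.51, 1.44 and 1.33 CPM with AZD4573. It fell in each treated library, with a log2 fold change of -0.96 (SE 0.188, adjusted p = 0.000393). MIR497HG (chr17:7015818-7019659, minus strand), which carries miR-195 and miR-497, had overlapping groups of 1.53 to 2.09 CPM with DMSO and 1.49 to 2.11 CPM with AZD4573 (log2 fold change -0.15, SE 0.195, adjusted p = 0.506).

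Both hosts of tissue-restricted microRNAs in the set are normally associated with other cell types. MIR9-1HG (chr1:156404250-156456763, minus strand) hosts miR-9, which is best known from the developing nervous system. It had 4.22, 4.41 and 4.13 CPM with DMSO and 2.75, 2.32 and 1.87 CPM with AZD4573. The treated libraries were all lower, and the log2 fold change was -0.89 (SE 0.146, adjusted p = 9.11e-05). MIR302CHG (chr4:112646476-112650051, minus strand), the host of the pluripotency-associated miR-302 cluster, had 16, 16 and 19 counts with DMSO and 19, 11 and 6 with AZD4573. Its log2 fold change of -0.06 had an SE of 0.481, the widest of the members that did not pass the test (adjusted p = 0.915), so no difference was detectable at this depth. All of its exon bases lie opposite the far more abundant LARP7, and counting that ignores strand cannot tell their reads apart.

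The let-7 hosts fall among the 12 members named after other microRNAs. Of these 12, 2 fell (16.7%) and 4 rose (33.3%), against 23.7% and 22.7% of all genes. MIRLET7IHG (chr12:62602752-62622213, plus strand), the host of the growth-restraining let-7i, was at 0.561, 0.560 and 0.394 CPM with DMSO and at 1.38, 1.89 and 2.28 CPM with AZD4573. Every treated library was above every DMSO library, with a log2 fold change of 1.87 (SE 0.249, adjusted p = 1.27e-05). MIRLET7A1HG (chr9:94166258-94200905, plus strand), the host of let-7a, let-7f and let-7d, was the more abundant let-7 host per kilobase of exon, at 0.912 CPM per kb with DMSO against 0.0581 for MIRLET7IHG. Its libraries spanned 3.36 to 4.71 CPM with DMSO and 4.25 to 5.10 CPM with AZD4573 and overlapped (log2 fold change 0.11, SE 0.143, adjusted p = 0.518).

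The 3 other hosts that rose carry microRNAs of less settled function. MIR762HG (chr16:30875222-30895220, plus strand) had 2.03, 1.82 and 1.53 CPM with DMSO and 4.95, 4.19 and 4.88 CPM with AZD4573, and its log2 fold change was 1.38 (SE 0.143, adjusted p = 1.06e-06). MIR600HG (chr9:123109494-123115477, minus strand) had 3.57, 4.46 and 5.54 CPM with DMSO and 9.59, 8.49 and 8.39 CPM with AZD4573, with a log2 fold change of 0.96 (SE 0.138, adjusted p = 2.46e-05). MIR1302-9HG (chr9:27657-30891, plus strand) had 1.76, 2.79 and 2.40 CPM with DMSO and 4.03, 4.33 and 4.05 CPM with AZD4573, with a log2 fold change of 0.84 (SE 0.160, adjusted p = 0.000318). The groups lay apart for each of them. MIR1302-9HG belongs to a family of near-identical subtelomeric copies, among which the counting could split reads, so its value is uncertain.

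A smaller fall was found for MIR4458HG and MIR4453HG. MIR4458HG (chr5:8450701-8486930, plus strand) had 2.24, 3.004 and 2.54 CPM with DMSO and 1.14, 1.65 and 1.90 CPM with AZD4573 (log2 fold change -0.72, SE 0.195, adjusted p = 0.00430). MIR4453HG (chr4:152536264-152539263, plus strand) had 6.003, 6.38 and 6.04 CPM with DMSO and 4.62, 3.74 and 3.85 CPM with AZD4573 (log2 fold change -0.60, SE 0.111, adjusted p = 0.000258). Both sets of groups were apart, but neither call was firm on the fold. MIR4458HG missed the 1.5-fold limit without AZD4573 replicate 1 (-0.55), and MIR4453HG, at 1.51-fold, missed it without DMSO replicate 2 (-0.58), AZD4573 replicate 2 (-0.54) or AZD4573 replicate 3 (-0.56).

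Of the 5 hosts in this group still to be named, MIR4435-2HG and MIR3936HG had an adjusted p under 0.05 without reaching the fold limit. MIR4435-2HG (chr2:111006015-111523376, minus strand) is a long noncoding RNA beside BCL2L11, the gene of the pro-apoptotic protein BIM. It had 3.67, 3.77 and 3.52 CPM with DMSO and 5.88, 4.33 and 4.88 CPM with AZD4573 (log2 fold change 0.46, SE 0.127, adjusted p = 0.00507). It has a near-identical copy, CYTOR, at -0.35 (SE 0.137, adjusted p = 0.0339), and the counting could split reads between them, so both values are uncertain. MIR3936HG (chr5:132311285-132370170, minus strand) lay between 1.26 and 1.58 CPM with DMSO and between 1.87 and 2.04 CPM with AZD4573 (log2 fold change 0.42, SE 0.168, adjusted p = 0.0347). MIR3677HG (chr16:2268155-2273418, plus strand) had 17, 15 and 17 counts with DMSO and 18, 19 and 25 with AZD4573, and after scaling its groups did not overlap (log2 fold change 0.75, SE 0.356, adjusted p = 0.0735). MIR1915HG (chr10:21490272-21497260, minus strand) and MIR3681HG (chr2:11833926-12702913, plus strand) had overlapping groups, with log2 fold changes of 0.18 (SE 0.145) and 0.07 (SE 0.274).

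**Figure D2:**
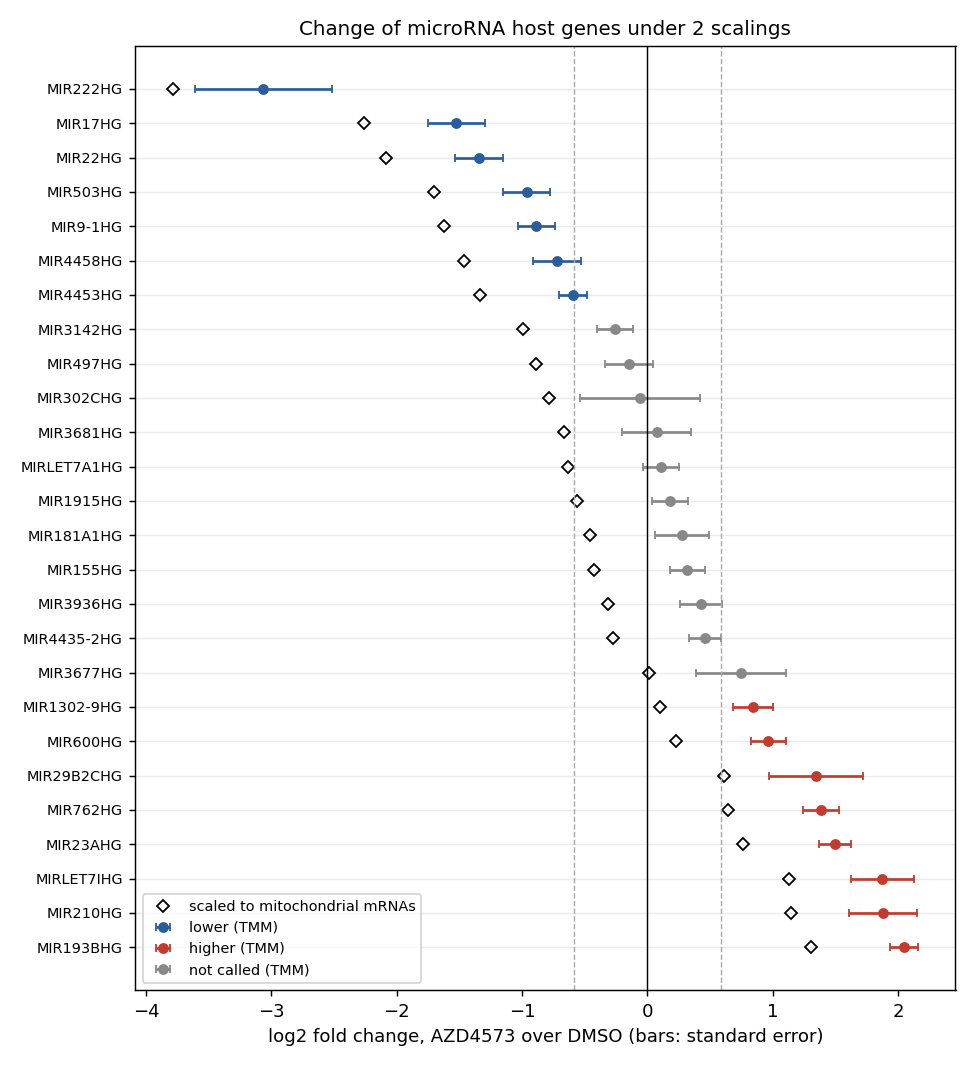
Log2 fold change of the 26 host genes, AZD4573 over DMSO, with TMM scaling (filled points with standard errors) and with libraries scaled to the 13 mitochondrial mRNAs (open diamonds), where dashed lines mark a fold change of 1.5. The diamonds sit to the left of the filled points by about the shift of all genes (-0.74), which leaves 11 hosts called lower and 5 higher.

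The direction of the middle of the set depended on the scaling. CDK9 acts on RNAP2, and mitochondrial genes have a polymerase of their own, so the libraries were also scaled to the 13 mitochondrial mRNAs. The median over all genes then shifted by -0.74, to -0.71, and that of the members to -0.51. With it 11 hosts were lower (53.4% of all genes were) and 5 higher (10.0% of all genes). MIR193BHG, MIR210HG, MIRLET7IHG, MIR23AHG and MIR762HG kept their rise, with log2 fold changes of 1.305, 1.14, 1.13, 0.76 and 0.64. MIR600HG, MIR1302-9HG and MIR29B2CHG no longer passed, at 0.23, 0.10 and 0.61. The 7 lower hosts stayed lower, from -3.79 for MIR222HG to -1.34 for MIR4453HG. MIR3142HG, MIR497HG, MIR3681HG and MIRLET7A1HG were called lower under this scaling, at -0.996, -0.89, -0.66 and -0.63.

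Hosts that encode microRNAs with the same seed were then set side by side, since a seed can be supplied from more than 1 locus. From the list of 34 other microRNA-bearing genes, those with a seed in common with a member were taken, which were AOPEP, DLEU2, HUWE1, MCM7 and SMC4. Mature strands with the shared seeds that are not shown above are given here, without the less used arms, with the seed in capitals, to show which loci carry the same seed.
hsa-let-7a-5p: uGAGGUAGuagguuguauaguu (chr9:94175962-94175983, plus strand, exon of MIRLET7A1HG)
hsa-let-7f-5p: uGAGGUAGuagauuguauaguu (chr9:94176353-94176374, plus strand, exon of MIRLET7A1HG, and chrX:53557246-53557267, minus strand, intron of HUWE1)
hsa-let-7d-5p: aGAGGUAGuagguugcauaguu (chr9:94178841-94178862, plus strand, exon of MIRLET7A1HG)
hsa-miR-98-5p: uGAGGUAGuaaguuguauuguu (chrX:53556299-53556320, minus strand, intron of HUWE1)
hsa-miR-424-5p: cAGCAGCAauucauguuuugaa (chrX:134546680-134546701, minus strand, beside MIR503HG)
hsa-miR-195-5p: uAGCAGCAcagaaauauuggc (chr17:7017667-7017687, minus strand, exon of MIR497HG)
hsa-miR-497-5p: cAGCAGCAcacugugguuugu (chr17:7017979-7017999, minus strand, exon of MIR497HG)
hsa-miR-15a-5p: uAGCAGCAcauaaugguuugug (chr13:50049167-50049188, minus strand, exon or exon edge of DLEU2)
hsa-miR-15b-5p: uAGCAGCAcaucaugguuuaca (chr3:160404607-160404628, plus strand, intron of SMC4)
hsa-miR-16-5p: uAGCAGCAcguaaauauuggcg (chr13:50049027-50049048, minus strand, intron of DLEU2, and chr3:160404754-160404775, plus strand, intron of SMC4)
hsa-miR-23b-3p: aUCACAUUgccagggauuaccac (chr9:95085265-95085287, plus strand, intron of AOPEP)
hsa-miR-27b-3p: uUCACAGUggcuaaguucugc (chr9:95085505-95085525, plus strand, intron of AOPEP)
hsa-miR-106b-5p: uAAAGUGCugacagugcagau (chr7:100094043-100094063, minus strand, intron of MCM7)
hsa-miR-25-3p: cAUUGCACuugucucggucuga (chr7:100093571-100093592, minus strand, intron of MCM7)
hsa-miR-367-3p: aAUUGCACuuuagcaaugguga (chr4:112647877-112647898, minus strand, exon of MIR302CHG)

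The miR-23, miR-27 and miR-24 seeds come from the paralogous clusters of MIR23AHG and AOPEP, which both encode the same miR-24-3p. MIR23AHG rose, as given above, and AOPEP, an aminopeptidase gene, fell. AOPEP stood at 3.62, 3.75 and 3.42 CPM with DMSO and at 2.16, 1.82 and 1.67 CPM with AZD4573 (log2 fold change -0.94, SE 0.141, adjusted p = 4.02e-05). The members of the pair thus lay on opposite sides, and they did so also with mitochondrial scaling, at 0.76 and -1.67.

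The let-7 seed GAGGUAG is carried by MIRLET7IHG, which rose, by MIRLET7A1HG, which did not pass the test, and by HUWE1, a ubiquitin ligase gene. HUWE1 went from 579 ± 22.7 to 860 ± 29.6 CPM (SD, n = 3), which at 1.48-fold was just under the fold limit (log2 fold change 0.57, SE 0.0449, adjusted p = 6.89e-08). With mitochondrial scaling MIRLET7IHG kept its rise, at 1.13, while HUWE1 and MIRLET7A1HG turned negative, at -0.17 and -0.63. The seed AGCAGCA, of the miR-15 and miR-16 family that restrains the cell cycle, is carried at 4 of the genes. DLEU2, the noncoding host of miR-15a and miR-16, fell from 19.1 ± 1.19 to 9.93 ± 0.445 CPM (SD, n = 3, log2 fold change -0.95, SE 0.0737, adjusted p = 6.11e-08). SMC4, a condensin gene, fell from 415 ± 9.78 to 259 ± 4.00 CPM (SD, n = 3, log2 fold change -0.68, SE 0.0392, adjusted p = 3.24e-09). MIR503HG, beside which miR-424 lies, fell as well, while MIR497HG did not pass the test. The value of MIR497HG is limited by other genes, which overlap 93.6% of its exon bases.

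The miR-17 seed AAAGUGC lies in MIR17HG and in an intron of MCM7, a replicative helicase gene. MIR17HG fell, and MCM7 stood at 1240 ± 8.80 CPM with DMSO and 1314 ± 33.7 CPM with AZD4573 (SD, n = 3, log2 fold change 0.08, SE 0.0403, adjusted p = 0.0766). With mitochondrial scaling both were negative, MIR17HG at -2.26 and MCM7 at -0.66. The seed AUUGCAC is shared by miR-92a of MIR17HG, miR-367 of MIR302CHG and miR-25 of MCM7. With TMM scaling MIR17HG was the 1 gene of these that passed the test.

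**Figure D3:**
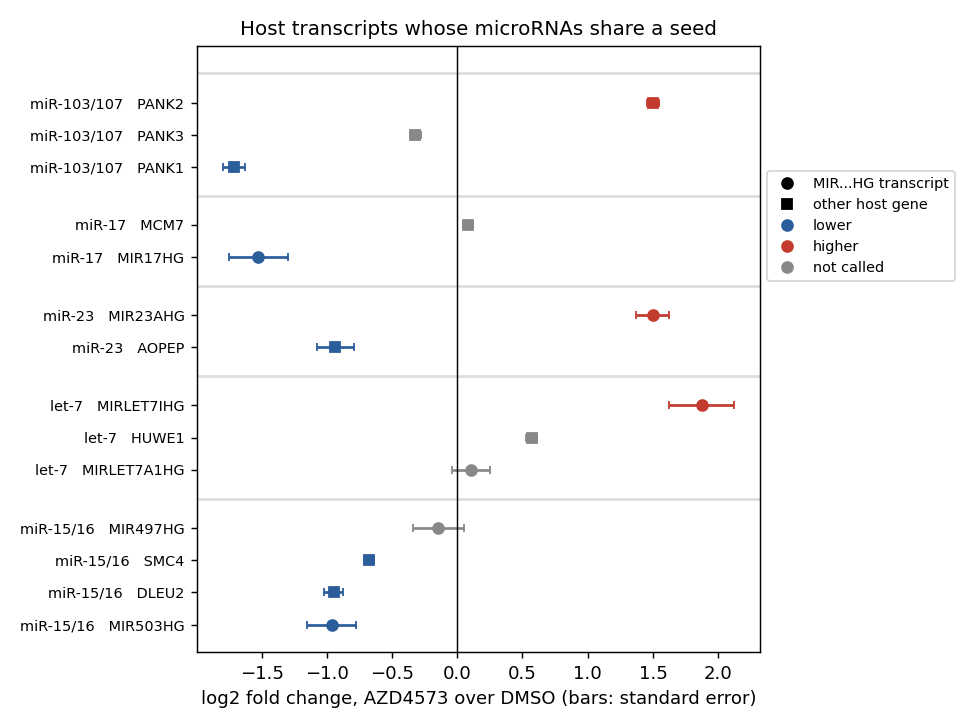
Log2 fold change, AZD4573 over DMSO, of host transcripts whose microRNAs share a seed, with standard errors from edgeR, where circles are members, squares are other host genes, blue is lower, red is higher and grey did not pass the test. The miR-23 pair (1.497 and -0.94) and the genes PANK2 and PANK1 (1.502 and -1.71) lie on opposite sides of 0, and the miR-15/16 hosts lie at or below -0.15.

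Of the 34 genes listed as carrying microRNAs under other names, 31 matched a RefSeq hairpin on their own strand, and HNRNPK, LPP and ACADVL did not. Over the whole list, 32 were tested, of which 8 were lower and 5 higher. That was 25% and 15.6%, against 23.7% and 22.7% of all genes, and the median log2 fold change was 0.18. Among the 29 tested genes with a matched hairpin, 8 were lower and 4 higher. The largest falls were in RCL1 (-2.36, SE 0.0784), which carries miR-101-2 and takes part in pre-rRNA processing, in PANK1 (-1.71, SE 0.0866) and in the chondroitin synthesis gene CHPF2 (-1.31, SE 0.0515). The largest rises were in PANK2 (1.502, SE 0.0486), in the dynamin gene DNM3 (1.17, SE 0.355) and in ACADVL (0.85, SE 0.0443), a gene of fatty acid oxidation and 1 of those without a matched hairpin.

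The pantothenate kinase genes, which make the first step of coenzyme A synthesis, carry microRNAs that share the seed GCAGCAU. The mature strands are shown because PANK1 fell and PANK2 rose.
hsa-miR-107: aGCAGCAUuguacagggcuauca (chr10:89592756-89592778, minus strand, intron of PANK1)
hsa-miR-103a-3p: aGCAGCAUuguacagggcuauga (chr20:3917541-3917563, plus strand, intron of PANK2, and chr5:168560904-168560926, minus strand, intron of PANK3)
PANK1 went from 13.7 ± 0.801 to 4.19 ± 0.1065 CPM and PANK2 from 85.6 ± 3.77 to 242 ± 10.7 CPM (SD, n = 3). PANK3, named after its value was seen, went from 90.7 ± 1.46 to 72.7 ± 1.43 CPM (SD, n = 3, log2 fold change -0.32, SE 0.0431, adjusted p = 1.40e-05) and did not reach the fold limit.

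With the RefSeq microRNA set used here, at least 1 hairpin on their own strand was matched to 21 of the 26 members. Of 41 hairpins inside a member, 26 lie in an exon, 3 at an exon edge and 12 in an intron, and 5 more lie within 5 kb or across an end. No hairpin was matched to MIR155HG, MIR22HG, MIR1302-9HG, MIR4458HG and MIR3936HG, so no sequence is shown for them. They are also outside the split below. MIR155HG and MIR22HG are the hosts of miR-155 and miR-22, so a missing match is no evidence that a member carries no microRNA. The hairpins have rows of their own in the count table, 60 to 112 bases long, and all 46 of these rows stood at 0 counts in every library. The reads described in the supplemental methods are longer than these rows, so the zeros carry no information on the hairpins. The 7 members whose matched hairpins are all intronic held 4 of the higher hosts and none of the lower ones, with a median log2 fold change of 1.38. The 14 members with a matched hairpin in an exon or at its edge held 5 lower and 3 higher hosts, with a median of -0.10. These lower hosts include MIR222HG, which passed the filter through its DMSO libraries alone and also has an intronic hairpin. Of all genes tested, 23.7% were lower and 22.7% higher. This split was made after the values were seen and was not tested.

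Since RSEM at default parameters ignores strand, reads from a host and from an overlapping gene cannot be told apart where their exons or introns coincide. For 10 members no exon base lies within another gene, and 4 of these were lower and 2 higher. The lower ones were MIR503HG, MIR9-1HG, MIR4453HG and MIR222HG, which had to differ by the filter. The higher ones were MIR193BHG and MIR210HG. Of all genes tested, 23.7% were lower and 22.7% higher. For 5 members more than 90% of exon bases lie within another gene, and of these MIR600HG, MIR762HG and MIR1302-9HG were higher. MIR600HG lies almost wholly (99.9%) within STRBP on the same strand, at 89.6 CPM with DMSO and 98.1 CPM with AZD4573 (log2 fold change 0.13, SE 0.0411). MIR762HG lies in part opposite BCL7C (log2 fold change 0.33, SE 0.0697), which spans 1244 of its 2162 exon bases. A noncoding gene on the opposite strand, ENSG00000262721, spans 1614 of them and has no tested fold change, so the main partner of this host is not covered. MIR1302-9HG lies opposite WASHC1 (-0.19, SE 0.102). The log2 fold changes of STRBP, BCL7C and WASHC1 lay between -0.19 and 0.33, and those of the hosts between 0.84 and 1.38. MIR302CHG, which did not pass the test, lies wholly opposite LARP7, and 56.7% of its exon bases are exonic there. LARP7 stood at 97.8 CPM with DMSO and 78.8 CPM with AZD4573 (-0.31, SE 0.0561), beside 0.227 and 0.222 CPM of the host.

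For the 6 remaining hosts that passed the test, the share was smaller. MIR23AHG has 43.97% of its exon bases opposite ZSWIM4, which fell from 7.02 to 4.59 CPM (log2 fold change -0.61, SE 0.106, adjusted p = 0.000150) while the host rose. MIR29B2CHG has 24.3% opposite CD46, a complement regulator, which rose from 89.4 to 152 CPM (0.77, SE 0.0430) beside the 0.155 and 0.397 CPM of the host. MIR4458HG has 40.7% and MIR17HG 36.6% of exon bases within noncoding genes or a pseudogene on the opposite strand that have no tested fold change. In MIR17HG, 20.5% of exon bases are also exonic in that gene. MIR22HG has 4.44% opposite WDR81 (0.08, SE 0.0585), and MIRLET7IHG has 0.966% opposite LINC01465 (0.53, SE 0.334). Among hosts that did not pass the test, MIR4435-2HG lies in part opposite BCL2L11, which went from 320 to 257 CPM (-0.31, SE 0.0388). The part of these overlaps in the host values was not tested.

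**Figure D4:**
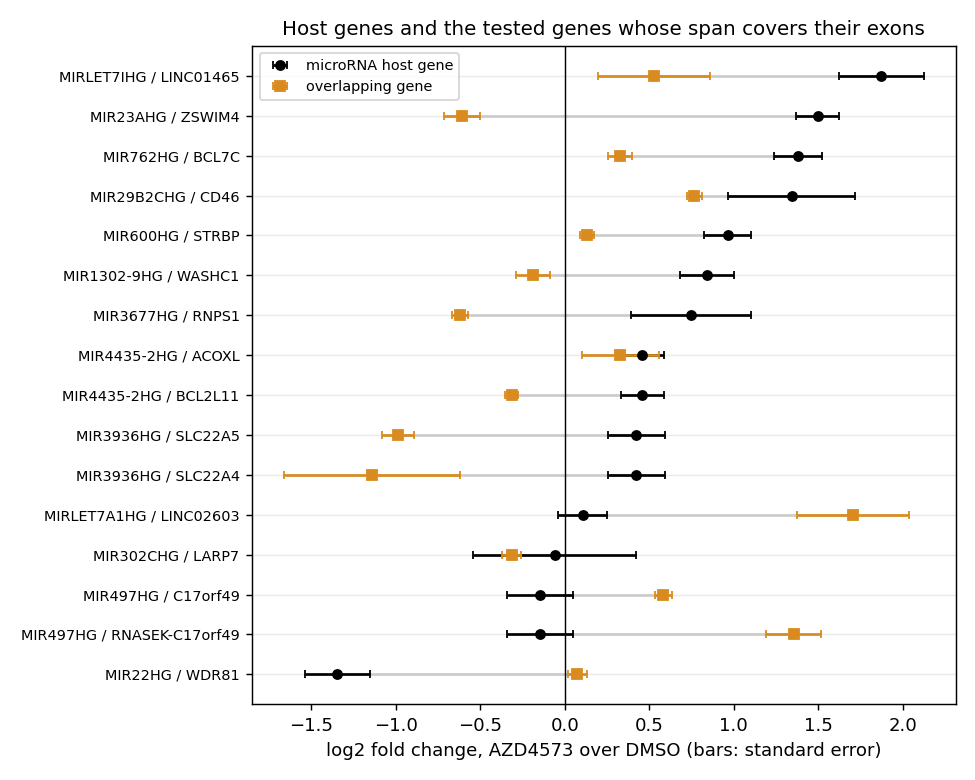
Log2 fold change, AZD4573 over DMSO, of host genes (black circles) and of the tested genes whose span covers some of their exon bases (orange squares), with standard errors from edgeR. MIR23AHG and ZSWIM4 lie at 1.497 and -0.61, and MIR600HG and STRBP at 0.96 and 0.13.

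Over the 26 members, Pearson's r of the log2 fold change was -0.01 with the log10 gene span, 0.07 with the log10 exon length, -0.19 with the log10 mean CPM with DMSO and 0.17 with the share of exon bases inside other genes. These are descriptions across genes of the same 6 libraries, and genes are not independent replicates. Per kilobase of exon, the highest members with DMSO were MIR3142HG at 3.71 CPM per kb, MIR4453HG at 2.05 and MIR155HG at 1.39, and the lowest was MIR29B2CHG at 0.0161. With AZD4573 MIR762HG reached 2.16 CPM per kb and MIR193BHG 1.58.

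Genes that act in microRNA maturation, function and turnover, including inhibitors of maturation such as LIN28B, were examined next. Of 26 genes on the list, all tested, 4 were lower and 1 higher, or 15.4% and 3.85%, against 23.7% and 22.7% of all genes. The largest fall was in TUT7, a uridylyltransferase that acts on let-7 precursors. It stood at 18.3, 19.1 and 17.5 CPM with DMSO and at 6.43, 4.84 and 5.06 CPM with AZD4573 (log2 fold change -1.75, SE 0.0997, adjusted p = 2.85e-09). LIN28B, which binds let-7 precursors and blocks their maturation, had 68.9, 65.0 and 63.8 CPM with DMSO and 26.4, 21.1 and 22.1 CPM with AZD4573 (log2 fold change -1.51, SE 0.0743, adjusted p = 7.93e-10). The treated libraries of both genes lay well below those with DMSO.

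TARBP2, the RNA-binding partner of DICER1, fell from 23.7 ± 0.773 to 12.3 ± 0.762 CPM (SD, n = 3, log2 fold change -0.95, SE 0.0678). DDX5, a helicase of the DROSHA complex, fell from 1302 ± 18.4 to 862 ± 18.5 CPM (SD, n = 3, log2 fold change -0.59, SE 0.0402) and is named after its value was seen. The gene that rose was TNRC6B, a scaffold that links Argonaute to mRNA decay, from 35.1 ± 1.42 to 56.8 ± 2.37 CPM (SD, n = 3, log2 fold change 0.70, SE 0.0537). With TMM scaling the core enzymes stayed within the fold limit. DROSHA was at 0.21 (SE 0.0475), DGCR8 at 0.14 (SE 0.0472), XPO5 at -0.42 (SE 0.0456), DICER1 at -0.17 (SE 0.0398) and AGO2 at 0.27 (SE 0.0407) on the log2 fold change scale. With mitochondrial scaling, 20 of the 26 were lower and 0 higher, by edgeR's test with the same thresholds. Under that scaling 53.4% of all genes were lower and 10.0% higher, with the median of all genes shifted by -0.74.

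**Figure D5:**
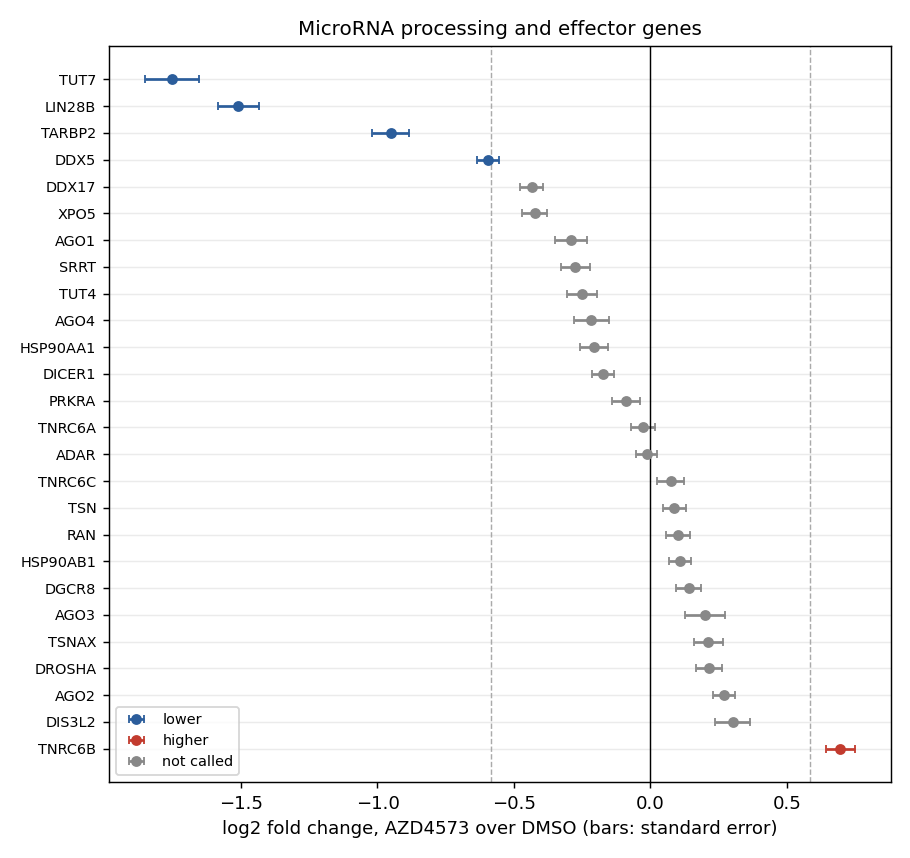
Log2 fold change of 26 microRNA processing and effector genes, AZD4573 over DMSO, with TMM scaling, standard errors from edgeR and dashed lines at a fold change of 1.5. TUT7, LIN28B, TARBP2 and DDX5 are lower (blue) and TNRC6B is higher (red), with the core enzymes between the lines in grey.

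For orientation, 25 snoRNA host genes have SNHG names and at least 60 counts. They held 4 lower (16%) and 6 higher genes (24%), with a median log2 fold change of 0.32. Among long intergenic RNAs with LINC names chosen in the same way, 23 of 241 tested were lower (9.54%) and 106 higher (44%), with a median of 0.63. Of all genes tested, 23.7% were lower and 22.7% higher. The difference of the microRNA hosts from these groups was not tested.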

How the data were processed

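RNA-seq of 3 DMSO and 3 AZD4573 libraries of H9 cells was used. The submitters' processing notes name cutadapt 2.3, STAR 2.7.8a, RSEM 1.3.3 and GRCh38. The authors deposited expected counts per gene, in whole numbers and not normalized. The labels give poly(A) RNA, whereas the supplemental methods describe rRNA depletion. From these counts, edgeR 4.0.16 (R 4.3.3) was run on all genes with a minimum count of 10, TMM factors, the quasi-likelihood test and Benjamini-Hochberg adjustment over 17678 genes. SE is the absolute log2 fold change divided by the square root of F. Within groups, chi-square per degree of freedom was 5.59 to 21.2 for each pair, so none is a copy. Replicate numbers are shared between groups, but deviations of same-numbered libraries correlated at -0.02, 0.04 and 0.03, so they were not treated as pairs. Alternatives were RLE, library size only, mitochondrial scaling, DESeq2 1.42.0, 2 other filters, a replicate block, leaving out each library, a fold of 2 and p without adjustment. Positions are from GENCODE release 44.

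The members and gene lists were chosen with earlier results of these data known. All members are described. From the lists of processing and microRNA-bearing genes, the 3 largest falls and 3 largest rises among called genes are named, besides genes that share a seed with a member. MIRLET7A1HG and MIRLET7IHG were not assigned to a microRNA group beforehand and stand among the others.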

Additional observations from a re-analysis of the deposited data

Results flagged for a closer look

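MIR122HG, the host of the liver microRNA miR-122, was outside the member rule and had signal in the treated libraries only. Its counts were 0, 0 and 0 with DMSO and 5, 4 and 4 with AZD4573, or 13 in all. Each treated count is above the limit of 3 counts that a count of 0 allows. The gene was picked from 51 scarce hosts because every treated count was above every DMSO count, so the gap is no test. In the other direction, MIR223HG had 3, 3 and 3 counts with DMSO and 0, 0 and 1 with AZD4573. No other host gene below the rule had 0 counts with DMSO and more than 3 in each treated library.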

How the results depend on the processing

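Scaling to mitochondrial mRNAs and a fold limit of 2 moved the counts of calls. With the former, 11 hosts were lower and 5 higher, 20 processing genes lower and 0 higher, and 15 microRNA-bearing genes lower and 1 higher. Of all genes, 53.4% were lower and 10.0% higher under that scaling. With a fold limit of 2, 3 hosts, 2 processing genes and 3 microRNA-bearing genes were lower, and 0 processing genes and 2 microRNA-bearing genes higher (6 hosts stayed higher). Of all genes, 13.9% were lower and 15.0% higher at that limit. The 3 hosts lower at it include MIR222HG, which had to differ by the filter. With each library left out, 6 to 7 hosts were lower and 8 higher in each case, 4 processing genes lower and 1 higher in each case, and 7 to 8 microRNA-bearing genes lower and 5 to 6 higher. The replicate block gave 7 lower and 8 higher hosts and changed no call of a list. With at least 10 counts in every library, MIR222HG and MIR302CHG were not tested, MIR4453HG (-0.56) missed the fold limit and MIR3677HG (0.78, adjusted p = 0.0252) was higher.

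Of 336 member values under the alternatives, 302 kept their direction and side of the adjusted p, and 19 members did so in each setting except mitochondrial scaling. That scaling turned the sign of MIR3681HG (-0.66), MIRLET7A1HG (-0.63), MIR1915HG (-0.56), MIR181A1HG (-0.46), MIR155HG (-0.43), MIR3936HG (-0.32) and MIR4435-2HG (-0.28). Library size only gave -0.033 for MIR3681HG and -0.0010 for MIRLET7A1HG. Leave-one-out values ran from -0.64 to 0.30 for MIR302CHG, from -0.10 to 0.28 for MIR3681HG and from -0.049 to 0.17 for MIRLET7A1HG. The cause was not tested. The adjusted p of MIR3936HG was above 0.05 under 8 alternatives, and that of MIR155HG was under it without DMSO replicate 2 (0.0467) or AZD4573 replicate 1 (0.0295), with at least 10 counts in every library (0.0369) and, in the opposite direction, with mitochondrial scaling (0.0119). Low counts limit MIR222HG, MIR302CHG, MIR29B2CHG and MIR3677HG most.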
